A study of Mus musculus with 11 samples.

Results

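The genes described here are 10 components and targets of bone morphogenetic protein (BMP) signalling at the dorsal midline of the embryonic brain, chosen by symbol from the 27179 genes counted: the ligand genes Bmp4, Bmp7 and Gdf7, the homeobox genes Msx1, Msx2, Msx3 and Lmx1a, and the inhibitor-of-differentiation genes Id1, Id2 and Id3. The roof plate is the strip of cells at the dorsal midline of the neural tube, and it secretes BMP and Wnt proteins that pattern the cells beside it. BMP ligands bind receptor kinases, the receptors phosphorylate SMAD proteins, and the SMADs together with Smad4 enter the nucleus and switch on target genes, among which the Id and Msx genes are the best known. At this stage BMPs are made by the surface ectoderm as well as by the roof plate.

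Expression was measured by RNA sequencing of polyadenylated RNA from C57BL/6 mouse embryos at embryonic day 9.5, in tissue labelled neural, which is the brain cut off immediately behind the otic vesicle. Every group was labelled Bim+/-, that is, with 1 mutant copy of Bcl2l11, the gene of the pro-apoptotic protein Bim. The 4 affected females and the 4 control males lacked p53 (p53-/- Bim+/-), and the 3 control females had both p53 copies (p53+/+ Bim+/-). The labels do not give the phenotype of the affected females, and no group is labelled with both Bim copies. Affected females against control females thus compares genotype and affected state together. Affected females against control males compares sex and affected state together, and control males against control females compares genotype and sex together. Within each of these contrasts the factors cannot be told apart. Each group enters 2 of the 3 comparisons, so the comparisons share libraries.

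Library totals lay between 8211942 and 11218682 counts. Trp53, the gene of p53, was at 107 to 139 CPM in affected females, 112 to 132 CPM in control males and 105 to 125 CPM in control females, so counts over the whole gene did not separate the genotypes. Ccng1, a gene that p53 activates, lay between 21.8 and 24.5 CPM in affected females, between 27.5 and 33.5 CPM in control males and between 74.7 and 93.8 CPM in control females, which separates the groups by their p53 label. Bcl2l11 itself was at 38.2 to 47.3 CPM in affected females, 36.0 to 47.7 CPM in control males and 71.0 to 82.1 CPM in control females. Its level thus was not alike in the 3 groups that share the label Bim+/-. In these libraries the Bim level runs with the p53 label, and whether the number of intact Bim copies differed between the groups was not tested. Levels are CPM, read counts scaled to library size with TMM factors, and fold changes and adjusted p-values are from edgeR's quasi-likelihood test over 14542 genes with a threshold of 0.05. The embryos are separate animals with no litter given, so p-values measure the spread between these embryos. In bulk tissue, fewer cells of a type and less RNA per cell cannot be told apart. Control female 1 differed from control females 2 and 3 in several members and marker lists, and values without it are given where they matter. Control male 4 was the least like the rest of its group. Its chi-square against each of them, over genes with 20 counts or more, was 14.3 to 31.6 per degree of freedom, against 6.77 to 11.6 among them. An alternative fit left out control female 1 and control male 4 together.

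The 250 bases before the annotated start are printed for 4 members: the called ligand Bmp4, the called target Id3, and, for comparison, Msx1 and Id2. The sequences are from RefSeq on GRCm38.p6, written 5′ to 3′ on the strand of the gene. Capitals mark GGCGCC, a GC-rich element that BMP SMADs bind, GTCT, the core of the SMAD-binding element, and CCAAT, the box bound by NF-Y, each on either strand (so AGAC and ATTGG are matches too), and in these 4 windows no 2 matches overlap.
Bmp4, chr14:46390670-46390919, minus strand: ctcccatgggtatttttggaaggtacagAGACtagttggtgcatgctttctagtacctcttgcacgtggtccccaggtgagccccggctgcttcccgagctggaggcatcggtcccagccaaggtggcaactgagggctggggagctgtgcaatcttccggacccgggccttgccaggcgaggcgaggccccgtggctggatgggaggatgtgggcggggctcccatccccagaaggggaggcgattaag
Msx1, chr5:37824586-37824835, minus strand: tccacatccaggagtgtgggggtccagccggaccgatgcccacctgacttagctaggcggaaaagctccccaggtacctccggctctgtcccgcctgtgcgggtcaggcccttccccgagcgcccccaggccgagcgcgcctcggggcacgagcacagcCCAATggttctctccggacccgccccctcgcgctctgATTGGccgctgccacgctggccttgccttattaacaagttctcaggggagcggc
Id2, chr12:25096093-25096342, minus strand: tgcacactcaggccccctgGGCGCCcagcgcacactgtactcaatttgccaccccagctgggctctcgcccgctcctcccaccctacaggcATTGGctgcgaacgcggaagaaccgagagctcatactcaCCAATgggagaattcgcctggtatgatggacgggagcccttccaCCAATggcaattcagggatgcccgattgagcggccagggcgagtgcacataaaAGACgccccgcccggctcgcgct
Id3, chr4:136143572-136143821, plus strand: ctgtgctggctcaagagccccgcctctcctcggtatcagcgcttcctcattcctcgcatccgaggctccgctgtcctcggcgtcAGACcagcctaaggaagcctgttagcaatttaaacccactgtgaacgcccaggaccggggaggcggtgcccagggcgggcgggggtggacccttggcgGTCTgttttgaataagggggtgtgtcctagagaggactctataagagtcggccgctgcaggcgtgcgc

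Windows of this length were at hand for 8 of the 10 members, all but Bmp7 and Id1. That of Lmx1a lies inside the annotated span of the gene. GGCGCC was present in 1 of the 8 windows, that of Id2, against 9.59% of all 32817 windows in the same table. GTCT was present in 6 of 8 windows, against 82.9% of all windows, and in Id3 it occurred on both strands. CCAAT was present in 4 of 8 windows, against 33.8% of all windows; Msx1 and Id2 carry it on both strands, and the windows of Bmp4 and Id3 do not hold these letters.

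Per base of counted length, the Id genes were the most abundant members and the ligands Bmp4 and Gdf7 the least. Id2 had a median of 115 CPM per kb of counted length over the 11 embryos (range 102 to 135 CPM per kb), Id3 had 53.6 CPM per kb (37.1 to 70.8), Id1 had 27.5 CPM per kb (20.9 to 34.5), and Msx1 had 21.0 CPM per kb (13.9 to 24.6). Below them came Msx3 at 11.1 CPM per kb (5.40 to 12.8), Bmp7 at 8.71 CPM per kb (7.09 to 9.94), Msx2 at 7.42 CPM per kb (5.53 to 9.88), Lmx1a at 6.14 CPM per kb (4.83 to 6.59) and Bmp4 at 3.30 CPM per kb (1.75 to 4.87). The ranges over embryos did not overlap between Id2 and Id3, between Id3 and Id1, or between Msx1 and Msx3. Those of Id1 and Msx1 overlapped, as did each neighbouring pair from Msx3 down to Bmp4. Gdf7 was at the floor of detection, with a median of 0.0663 CPM per kb.

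**Figure D1:**
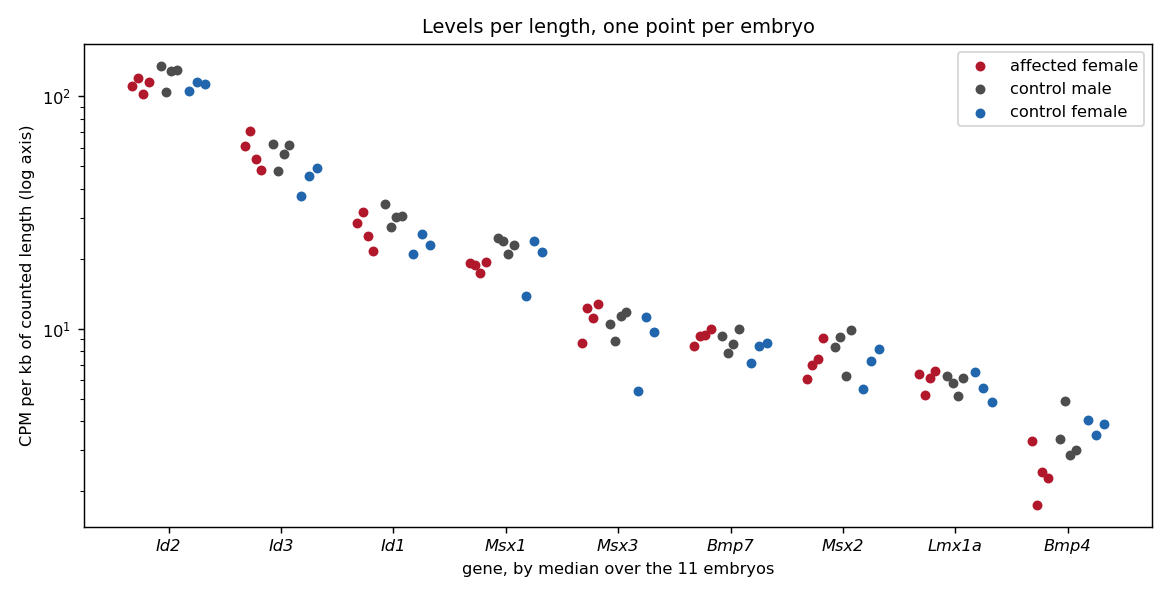
Level of each of the 9 tested member genes in each embryo as TMM-normalised CPM per kb of counted gene length (log axis), with genes in order of their median over 11 embryos. Id2 stood highest with a median of 115 CPM per kb and Bmp4 lowest of the tested genes with 3.30 CPM per kb.

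Of the 9 members that passed the filter on low counts, 2 changed in affected females against control females: Bmp4 was lower and Id3 was higher. That is 22.2% of the 9, against 28.0% of all 14542 tested genes (13.0% higher and 15.0% lower), so the share of members called was near the background. None of the 9 was called in affected females against control males, where 20.2% of all genes were called (9.51% higher and 10.7% lower). Here 2 members, Bmp4 and Msx1, had an unadjusted p under 0.05, as did 5424 of the 14542 tested genes. DESeq2 called 0 members and 3336 genes, and limma voom called 2 members, Msx1 and Id2, and 6397 genes. Between control males and control females edgeR called no member, against 0.144% of all genes. DESeq2 called no member and 43 genes, and limma voom called 1 member and 1569 genes. There 2 members (Id1 and Id3) had an unadjusted p under 0.05, as did 891 of the 14542 tested genes. The members' median log2 fold change was 0.11, -0.15 and 0.22 in these 3 comparisons, while the median of all tested genes was -0.0049, -0.018 and -0.00089.

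**Figure D2:**
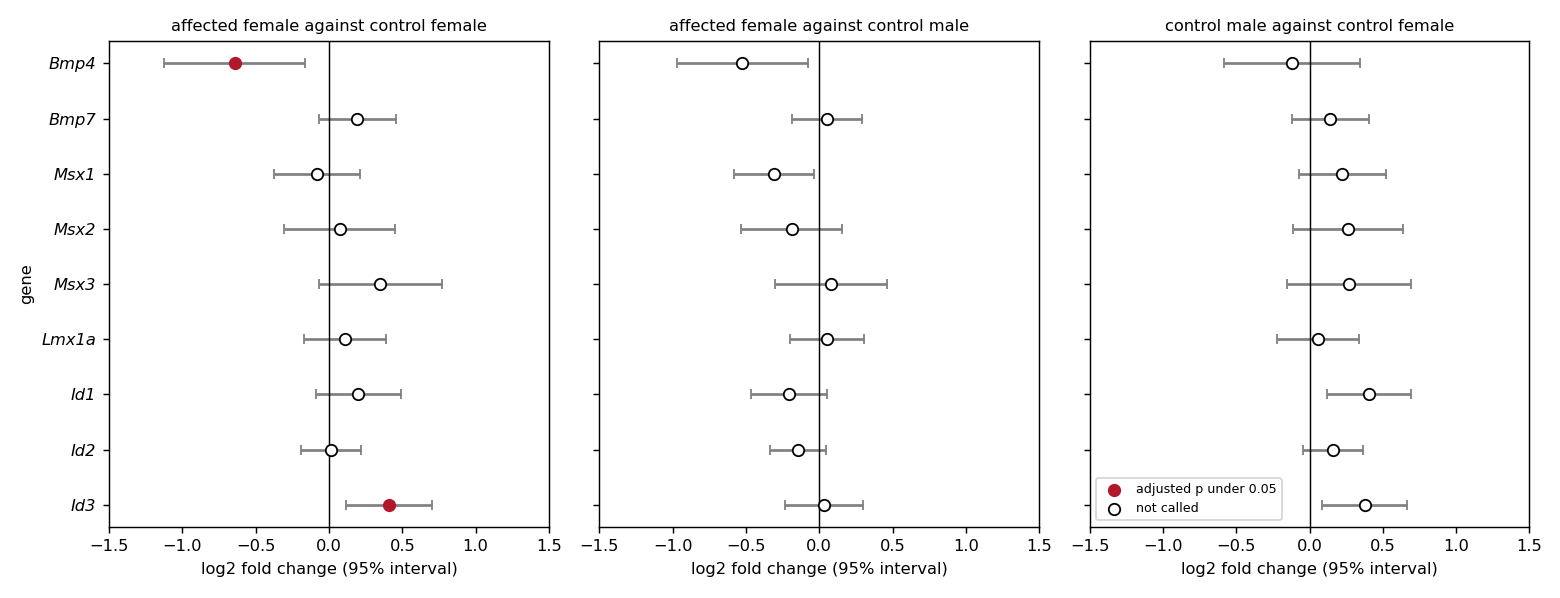
Log2 fold change of the 9 tested members in each comparison, with the 95% interval from edgeR (bars); filled points passed an adjusted p of 0.05. Bmp4 at -0.64 and Id3 at 0.41 passed in affected females against control females, and no member passed in the other 2 comparisons.

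Bmp4 (Entrez 12159, chromosome 14, 46383525 to 46390669 in GRCm38), a BMP ligand of the surface ectoderm and dorsal midline, was the member with the largest fold change. Its level was 6.58, 3.49, 4.85 and 4.55 CPM in affected females, against 8.10, 7.00 and 7.79 CPM in control females and 6.68, 9.72, 5.72 and 6.00 CPM in control males. All 4 affected females lay below all 3 control females, whereas affected female 1 lay within the range of the control males; 40.2% of all tested genes had ranges that did not overlap between affected and control females. The mean was 4.87 ± 1.28 CPM in affected females (SD, n = 4), against 7.63 ± 0.569 CPM in control females (n = 3), and the log2 fold change was -0.64 (SE 0.22, adjusted p = 0.0439), a fold of 0.460 to 0.891 (95% interval).

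Against control males, with 7.03 ± 1.84 CPM (n = 4), affected females had a log2 difference in Bmp4 of -0.52 (SE 0.21) with an adjusted p = 0.0830, and the interval of the fold was 0.511 to 0.947. Control males against control females gave -0.12 (adjusted p = 0.942, fold 0.667 to 1.27). The gene rests on 34 to 94 counts per library. The call against control females was lost on leaving out affected female 2, 3 or 4 (adjusted p = 0.105, 0.0914 and 0.0889), control male 1 (0.0542) or control female 1, 2 or 3 (0.0786, 0.0804 and 0.119). Its log2 fold change stayed between -0.82 and -0.52 over all 20 alternatives, of which 11 called it. Against control males it was called in 3 of 20 alternatives, with an adjusted p of 0.0380 to 0.258; it was 0.0445 without affected female 1 and 0.0479 without control male 4.

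Bmp7 (Entrez 12162, chromosome 2, 172868012 to 172940321), a further BMP ligand of the dorsal midline and ectoderm, was called in no comparison. It ranged from 16.6 to 19.6 CPM in affected females, 15.5 to 19.5 CPM in control males and 14.0 to 17.2 CPM in control females. The 3 ranges overlapped. Its log2 fold change was 0.19 (adjusted p = 0.241, fold 0.954 to 1.37) against control females and 0.05 (adjusted p = 0.766, fold 0.878 to 1.22) against control males, and 0.14 (adjusted p = 0.869, fold 0.921 to 1.32) in control males against control females.

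Gdf7 (Entrez 238057, chromosome 12, 8297918 to 8301954), a BMP family ligand restricted to the roof plate, was barely detected. It had 1, 0, 1 and 1 counts in affected females, 0, 0, 1 and 1 counts in control males and 0, 1 and 1 counts in control females, 7 counts in all, and was not tested. Every library was below the level of 3 counts that a count of 0 allows, which was 0.267 to 0.365 CPM. No difference was detectable at this depth. That limit covers counting error alone. Its annotated span overlaps Ldah, a gene with 639 to 1122 counts per library, over 2894 bases, but with 0 shared exonic bases in GENCODE vM21.

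**Figure D3:**
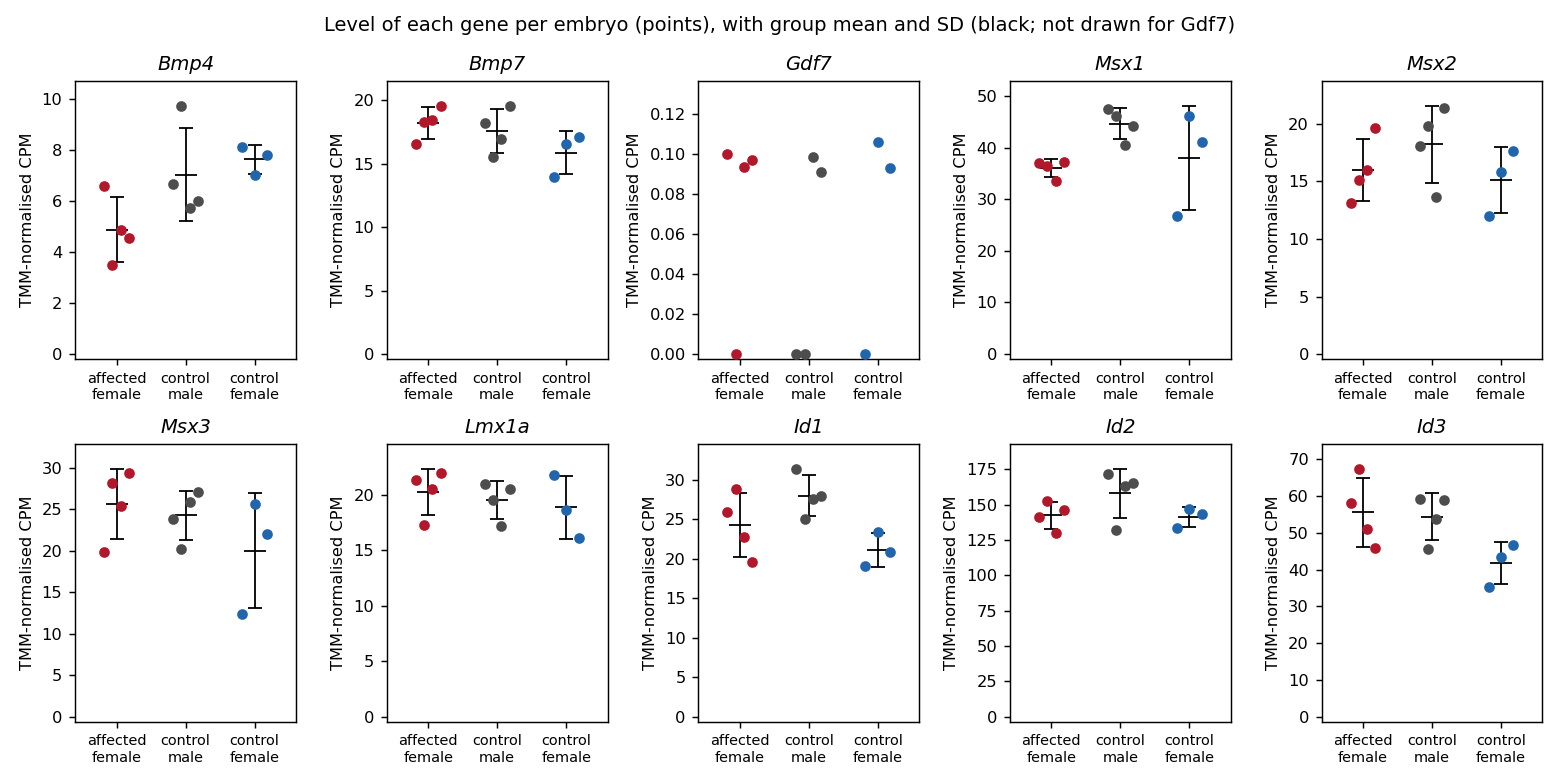
TMM-normalised CPM of each member gene in each embryo (points), with the mean and SD of the 4 affected females, 4 control males and 3 control females (black; none drawn for Gdf7). Bmp4 lay below every control female in all 4 affected females, and control female 1 had the lowest Msx1 and Msx3 of the 11 embryos, 26.8 and 12.3 CPM.

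Msx1 (Entrez 17701, chromosome 5, 37820491 to 37824585), a homeobox repressor induced by BMP in the dorsal neural tube and neural crest, was steady in affected females and varied among control females. It was at 37.1, 36.5, 33.5 and 37.3 CPM in affected females, against 47.6, 46.2, 40.6 and 44.2 CPM in control males and 26.8, 46.2 and 41.2 CPM in control females. The affected females lay below every control male, as 19.5% of all tested genes did in 1 direction or the other, and above control female 1 but below control females 2 and 3. Relative to control males the log2 fold change was -0.31 (SE 0.13, adjusted p = 0.0928, fold 0.670 to 0.975), and relative to control females it was -0.08 (adjusted p = 0.673, fold 0.769 to 1.16). In control males against control females it was 0.22 (adjusted p = 0.840, fold 0.953 to 1.43).

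Control female 1 decided where Msx1 fell relative to the threshold. Without it, the log2 fold change in affected females was -0.27 against control females (adjusted p = 0.0492) and -0.31 against control males (adjusted p = 0.0179). Over 20 alternatives the adjusted p ran from 0.0383 to 0.933 against control females, with 3 calls, and from 0.00998 to 0.219 against control males, with 4 calls. Msx1os, an antisense RNA of this locus, overlaps the span of Msx1 over 2188 bases (37820564 to 37822751). Shared exonic bases were not obtained for this pair. The sources used here give no strand setting for the counting. Reads from the overlapping part thus cannot be assigned to 1 gene of the pair, which limits the Msx1os values below too.

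Msx1os itself was at 8.18, 6.78, 5.50 and 6.59 CPM in affected females, 20.8, 21.4, 12.9 and 8.82 CPM in control males and 4.61, 17.2 and 17.1 CPM in control females. Its log2 fold change was -1.24 (adjusted p = 0.0230) against control males and -0.96 (adjusted p = 0.0602) against control females, and 0.28 (adjusted p = 0.917) in control males against control females. The call against control males was lost without affected female 3 or 4 (adjusted p = 0.0801 and 0.0576) or control male 1 or 2 (0.0831 and 0.0701). Affected females lay below all control males and, as for Msx1, between control female 1 and the other 2 control females.

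Msx2 (Entrez 17702, chromosome 13, 53466881 to 53472780) and Msx3 (Entrez 17703, chromosome 7, 140046157 to 140049088) are related homeobox genes; Msx3 expression is confined to the dorsal neural tube in mouse. Msx2 ranged from 13.2 to 19.7 CPM in affected females, 13.6 to 21.4 CPM in control males and 12.0 to 17.6 CPM in control females. Its log2 fold change was 0.07 (adjusted p = 0.779, fold 0.809 to 1.37) against control females and -0.19 (adjusted p = 0.414, fold 0.691 to 1.11) against control males. In control males against control females it was 0.26 (adjusted p = 0.845, fold 0.923 to 1.56). None of these passed and the ranges overlapped.

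Msx3 ranged from 19.8 to 29.4 CPM in affected females, 20.3 to 27.1 CPM in control males and 12.3 to 25.7 CPM in control females. Its log2 fold change was 0.35 (adjusted p = 0.188, fold 0.952 to 1.70) against control females and 0.08 (adjusted p = 0.771, fold 0.812 to 1.38) against control males, and that of control males against control females was 0.27 (adjusted p = 0.856, fold 0.901 to 1.61). Control female 1 held the lowest values of both genes among the 11 embryos.

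Lmx1a (Entrez 110648, chromosome 1, 167688230 to 167848741), a LIM homeobox gene needed to form the roof plate, varied less between embryos than most members and was called in no comparison. It was at 21.3, 17.3, 20.5 and 22.0 CPM in affected females, 21.0, 19.5, 17.2 and 20.5 CPM in control males and 21.8, 18.6 and 16.1 CPM in control females. Its log2 fold change was 0.11 (adjusted p = 0.541) against control females, with the fold between 0.890 and 1.31, and 0.05 (adjusted p = 0.777) against control males, with the fold between 0.869 and 1.24; in control males against control females it was 0.06 (adjusted p = 0.953, fold 0.858 to 1.26). Control female 1, low for the Msx genes, had the highest Lmx1a of its group.

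Id3 (Entrez 15903, chromosome 4, 136143822 to 136145392), which encodes a helix-loop-helix protein that blocks basic helix-loop-helix activators and is a direct BMP target, was the one member called higher. It was at 58.1, 67.5, 51.1 and 45.8 CPM in affected females, against 35.4, 43.4 and 46.6 CPM in control females and 59.2, 45.6, 53.8 and 58.9 CPM in control males. Affected female 4 lay below control female 3, so the ranges of affected and control females overlapped. Affected females spread from just above the lowest control male to above the highest. The mean was 55.6 ± 9.38 CPM in affected females (SD, n = 4) and 41.8 ± 5.78 CPM in control females (n = 3), a difference of 0.41 on the log2 scale (SE 0.14, adjusted p = 0.0383) and a fold of 1.08 to 1.62.

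Id3 in affected females did not pass against control males, at 54.4 ± 6.37 CPM (n = 4), with a log2 fold change of 0.03 (adjusted p = 0.877, fold 0.851 to 1.23). Control males against control females gave 0.38 (adjusted p = 0.748, fold 1.06 to 1.59). The call in affected females was lost on leaving out affected female 1, 2 or 3 (adjusted p = 0.0751, 0.105 and 0.0623), control male 3 (0.0574) or control female 1, 2 or 3 (0.115, 0.0839 and 0.0546). It held in 11 of 20 alternatives, with a log2 fold change of 0.30 to 0.50.

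Id1 (Entrez 15901, chromosome 2, 152736251 to 152737410), an Id family BMP target, was highest in control males. It was at 25.9, 28.9, 22.7 and 19.6 CPM in affected females, 31.4, 25.0, 27.6 and 27.9 CPM in control males and 19.1, 23.3 and 20.9 CPM in control females. All 4 control males lay above all 3 control females, a separation that 5.54% of all tested genes showed in 1 direction or the other, and the affected females overlapped both groups. The log2 fold change of control males against control females was 0.41 (SE 0.14, unadjusted p = 0.00849, adjusted p = 0.704, fold 1.09 to 1.62), and 1 of 20 alternatives, limma voom, called it (adjusted p = 0.0422, range 0.0422 to 0.999). In affected females it was 0.20 (adjusted p = 0.272, fold 0.941 to 1.40) against control females and -0.21 (adjusted p = 0.228, fold 0.723 to 1.04) against control males.

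Id2 (Entrez 15902, chromosome 12, 25093799 to 25096092), the most abundant of the Id genes here, had the narrowest relative range of the 9 tested members. It lay between 130 and 153 CPM in affected females, 132 and 171 CPM in control males and 133 and 147 CPM in control females. The log2 fold change was 0.01 (adjusted p = 0.929, fold 0.875 to 1.16) against control females and -0.15 (adjusted p = 0.240, fold 0.792 to 1.03) against control males, and limma voom alone called the second (adjusted p = 0.0128, range over 20 alternatives 0.0128 to 0.494). In control males against control females it was 0.16 (adjusted p = 0.840, fold 0.969 to 1.29).

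The genes whose levels followed those of the called members most closely over the 11 libraries, by Pearson's r of log2 CPM among 11495 candidate genes, were Caskin1 (r = 0.953) and Xylt2 (r = 0.945) for Bmp4. Akr7a5 (r = 0.914) and Polr2f (r = 0.903) were closest to Id3. For Msx1 they were Smug1 (r = 0.968) and Prdm12 (r = 0.961). These are the highest of many values and share the libraries' depth and group differences, so they describe these 11 libraries only.

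The wider pathway was described by 8 lists holding 58 other genes, of which 51 were tested. In affected females against control females 17 of the 51 were called (33.3%, 6 higher and 11 lower, against 28.0% of all genes), and in affected females against control males 11 of the 51 (21.6%, 2 higher and 9 lower, against 20.2%). In control males against control females 0 of 51 were called by edgeR, with 1 gene at an unadjusted p under 0.05, as were 891 of all 14542 tested genes. DESeq2 called 0 of the 51 and limma voom 4, when they called 43 and 1569 of all genes. The median log2 fold change of the 51 was 0.07, 0.01 and 0.04, close to that of all genes. Without control female 1 and control male 4, the counts were 24 and 23 of 51 in the comparisons of affected females with control females and control males, while 5711 and 6014 of all genes were called. Leaving out 1 library gave 4 of 51 against control females without control female 3 and 2 of 51 against control males without affected female 3, when 1663 and 361 of all genes were called. Against control females it was also 8 without affected female 3 and 8 without control female 2. Against control males the count was 6, 7 and 19 on omitting control male 1, 2 and 4.

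Among 5 tested ligands of the other BMP and GDF genes, affected females had 2 higher and 1 lower against control females (Bmp2, Bmp8b and Bmp6) and 1 of each against control males (Bmp2 and Bmp6), with medians of 0.34 and 0.22. Bmp6, a ligand best known for iron regulation and made by dorsal midline and ectodermal cells, was at 1.40, 1.54, 1.68 and 2.23 CPM in affected females, against 4.51, 4.34, 2.27 and 3.73 CPM in control males and 3.99, 3.82 and 3.89 CPM in control females. All affected females lay below all controls, by a small margin for control male 3, which like affected female 4 had 23 counts. Of all tested genes, 40.2% had ranges in affected females that did not overlap those of control females. For control males the share was 19.5%. Bmp6 changed on the log2 scale by -1.18 (SE 0.26, adjusted p = 0.00710) against control females and -1.11 (SE 0.24, adjusted p = 0.0118) against control males; the second was 0.0501 without affected female 3.

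Bmp2, a ligand close in sequence to Bmp4, moved the other way. It was at 10.3, 10.9, 10.7 and 8.53 CPM in affected females, against 4.04, 3.00, 5.13 and 4.73 CPM in control males and 9.10, 4.66 and 2.13 CPM in control females. The affected females lay above every control male, and control female 1 lay within their range. Bmp2 had a log2 difference of 1.25 (SE 0.29, adjusted p = 0.0139) against control males, where leaving out affected female 3 (0.0544) or control male 1 (0.0512) lost the call, and 0.97 (adjusted p = 0.0350) against control females, lost without affected female 1, 2, 3 or 4 (0.0608, 0.0666, 0.0872 and 0.0508) or control female 2 or 3 (0.113 and 0.141). Bmp8b had a log2 fold change of 1.11 against control females (adjusted p = 0.0322), lost without affected female 3 or 4 or control female 2 or 3 (adjusted p = 0.0713, 0.0909, 0.0963 and 0.147) and with DESeq2 (0.0825).

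Of 6 BMP receptors, 0 rose and 2 fell in affected females against control females: Acvr2a, a type II receptor, by 0.31 (adjusted p = 0.0161) and Bmpr1b, a type I receptor, by 0.50 (adjusted p = 0.0339) on the log2 scale. The Acvr2a call was lost without control female 2 (adjusted p = 0.0702) or 3 (0.0545), and that of Bmpr1b without affected female 1, 2 or 3 (0.0585, 0.0718 and 0.0803) or control female 2 or 3 (0.106 and 0.213). Against control males 0 of 6 were called by edgeR and by DESeq2, 1 by limma voom, and 0 had an unadjusted p under 0.05. Of all 14542 tested genes, limma voom called 6397 there, and 5424 had an unadjusted p under 0.05. Bmpr1a, the most abundant of the type I receptors, lay between 302 and 315 CPM in affected females, 284 and 319 CPM in control males and 273 and 292 CPM in control females.

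None of the 4 SMAD mediators was called by edgeR in either comparison of affected females; 1 gene, Smad4, had an unadjusted p under 0.05 in both (log2 fold change 0.25, adjusted p = 0.0509, and 0.22, adjusted p = 0.0729), and DESeq2 and limma voom called 1 of the 4 in both. Smad5, the most abundant of them, had log2 fold changes of -0.02 (adjusted p = 0.865) and 0.01 (adjusted p = 0.969) against control females and control males. Among all tested genes 6170 and 5424 had an unadjusted p under 0.05 in these 2 comparisons. DESeq2 called 4266 and 3336 of all genes, and limma voom 7639 and 6397.

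The 12 tested extracellular BMP antagonists and modulators held 3 genes that rose (Bmper, Chrdl1 and Grem1) and 1 that fell (Chrd) in affected females against control females, and 1 that rose (Chrdl1) against control males. Chrdl1, a chordin-like protein that binds BMPs outside the cell, was at 38.1, 52.6, 52.2 and 46.7 CPM in affected females, against 29.9, 23.7, 29.8 and 32.0 CPM in control males and 37.9, 23.2 and 23.2 CPM in control females. Every affected female lay above every control, by a small margin for control female 1. On the log2 scale the difference was 0.76 (SE 0.17, adjusted p = 0.00692) against control females and 0.72 (SE 0.15, adjusted p = 0.0109) against control males, the second 0.0501 without affected female 3.

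Bmper, a secreted BMP-binding protein, had a log2 fold change of 0.94 (adjusted p = 0.00642) against control females and 0.51 (adjusted p = 0.0534) against control males. Grem1 and Chrd, both secreted BMP antagonists, had 0.88 (adjusted p = 0.0176) and -1.08 (adjusted p = 0.0342) against control females. The Grem1 call was lost without affected female 3 (adjusted p = 0.0585) or control female 3 (0.0894). That of Chrd held in 11 of 20 alternatives and was lost on leaving out any 1 affected female (adjusted p = 0.0663, 0.0508, 0.0760 and 0.0683 for 1 to 4) or any 1 control female (0.124, 0.0531 and 0.0630 for 1 to 3).

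The 8 intracellular inhibitors of the pathway gave 0 higher and 3 lower, the same 3 genes in both comparisons of affected females: Skil, Bambi and Smad7. Bambi is a decoy receptor. Skil (SnoN) binds and represses SMADs, and Smad7 blocks the receptors. All 3 are themselves induced by BMP or TGF-beta signals. Skil was at 52.4, 50.0, 54.0 and 56.6 CPM in affected females, against 71.4, 105, 75.3 and 72.5 CPM in control males and 74.7, 83.5 and 94.4 CPM in control females. The affected females lay below all 7 controls, with a log2 difference of -0.66 (SE 0.13, adjusted p = 0.00399) against control females and -0.60 (SE 0.12, adjusted p = 0.00956) against control males, called in 20 of 20 alternatives in both.

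Bambi was at 11.7, 12.6, 9.97 and 11.5 CPM in affected females, against 20.7, 19.1, 17.6 and 14.3 CPM in control males and 16.2, 16.8 and 19.8 CPM in control females. Here too the affected females lay below all 7 controls, and the log2 fold change was -0.63 (SE 0.14, adjusted p = 0.00825) against control females, which was 0.0502 without control female 3, and -0.65 (SE 0.13, adjusted p = 0.0106) against control males. Smad7 had -0.82 (adjusted p = 0.0102) against control females, which was 0.0529 without control female 3, and -0.59 (adjusted p = 0.0391) against control males, where it was called in 14 of 20 alternatives. The call against control males was lost without affected female 2, 3 or 4 (adjusted p = 0.0770, 0.119 and 0.0775) or control male 1, 2 or 3 (0.0741, 0.119 and 0.0669). Smad6, a further inhibitory SMAD and BMP target, had 0.56 (adjusted p = 0.112) against control females and was not called.

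**Figure D4:**
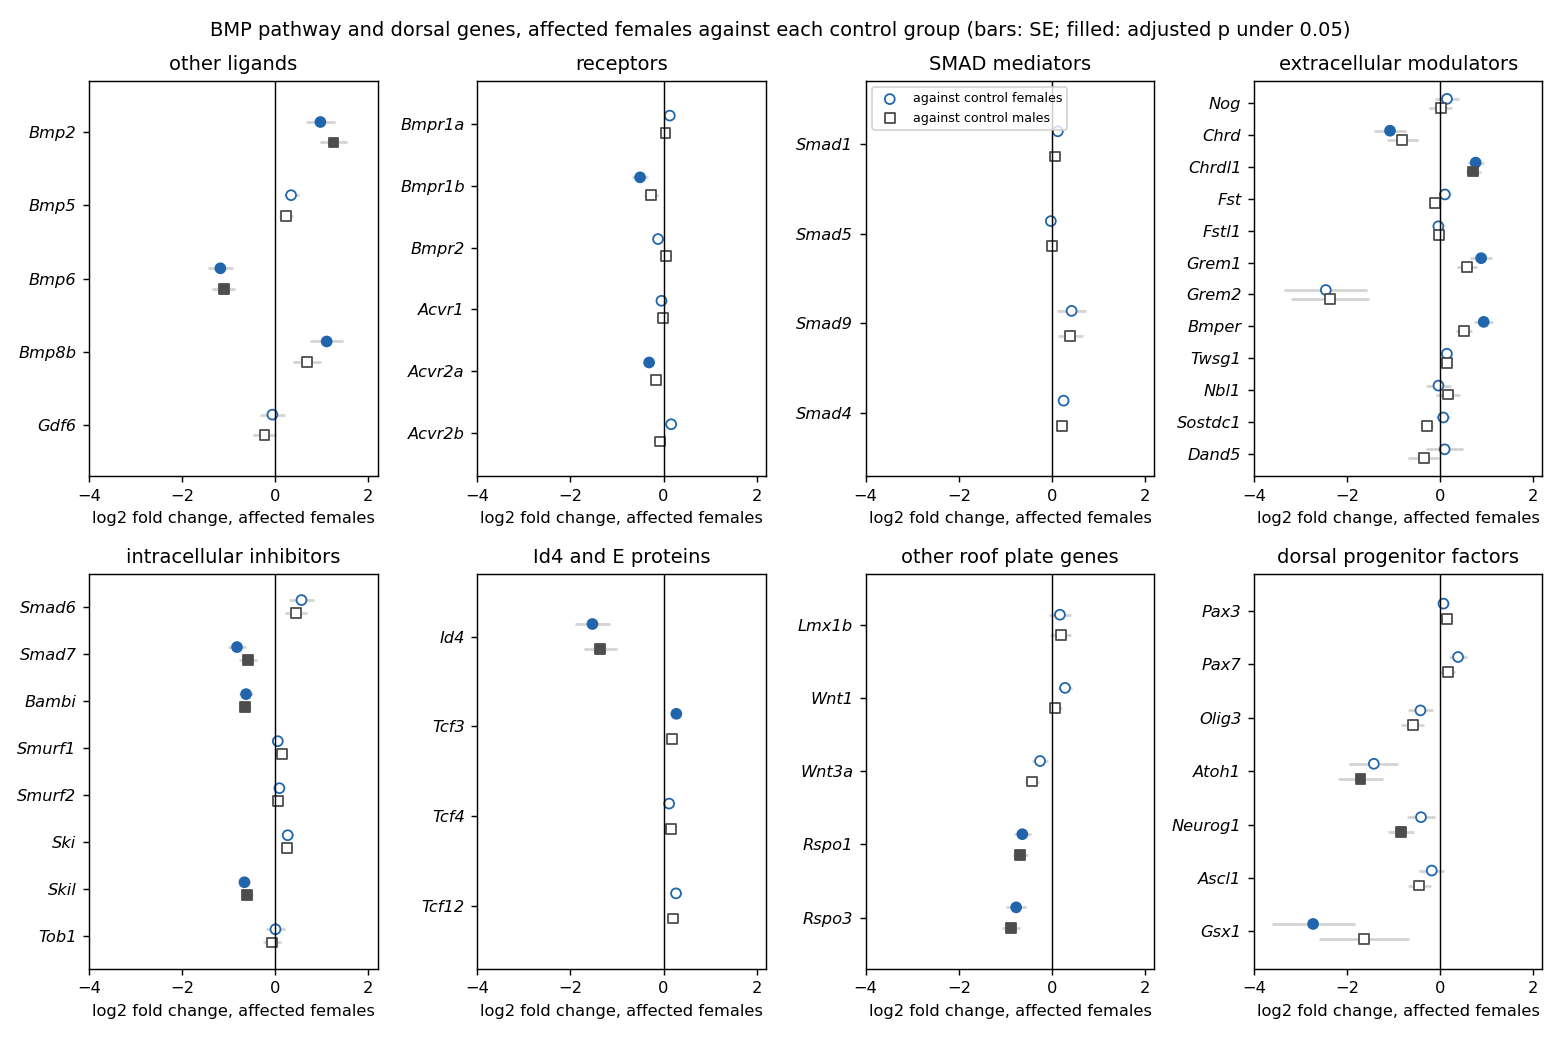
Log2 fold change of the 51 tested genes of the 8 pathway lists in affected females against control females (circles) and against control males (squares), with the SE as bars; filled symbols passed an adjusted p of 0.05. Skil, Bambi and Smad7 lay below 0 in both comparisons, Bmp2 and Chrdl1 above 0, and the comparisons share the affected females.

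Id4, the remaining Id gene, differed from Id1 to Id3. It was at 6.58, 7.40, 6.80 and 8.91 CPM in affected females, against 18.0, 32.5, 12.5 and 13.5 CPM in control males and 7.73, 24.6 and 31.2 CPM in control females. The affected females lay below all control males, and control female 1 lay among them. The log2 fold change was -1.53 (SE 0.38, adjusted p = 0.0111) against control females, 0.0728 without control female 3, and -1.36 (SE 0.36, adjusted p = 0.0209) against control males, lost without affected female 3 (0.0704), control male 1 (0.0568) or control male 2 (0.0714).

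The 3 E protein genes, whose products are the partners that Id proteins bind, held 1 further call: Tcf3 rose by a log2 fold change of 0.28 against control females (adjusted p = 0.0480), in 7 of 20 alternatives, and was not called without any 1 of the 4 affected females, control male 1 or 3 or control female 1, 2 or 3 (adjusted p up to 0.161 over all alternatives). Tcf12 was the most abundant, at 487 to 551 CPM in affected females, 393 to 522 CPM in control males and 406 to 441 CPM in control females.

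Of 5 other roof plate genes, 2 fell in both comparisons of affected females, Rspo1 and Rspo3, which encode secreted R-spondins that strengthen Wnt signals; Wnt1, Wnt3a and Lmx1b were not called. Rspo3 was at 10.9, 7.29, 9.60 and 13.3 CPM in affected females, against 16.9, 25.4, 15.5 and 18.1 CPM in control males and 12.8, 19.4 and 19.9 CPM in control females. Rspo1 was at 11.1, 8.94, 9.23 and 14.7 CPM in affected females, against 16.5, 20.8, 17.1 and 16.2 CPM in control males and 14.1, 17.0 and 19.9 CPM in control females. For both genes the affected females lay below all control males, and affected female 4 lay above control female 1.

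The log2 fold change of Rspo3 was -0.77 (adjusted p = 0.0180) against control females and -0.88 (adjusted p = 0.0121) against control males. That of Rspo1 was -0.63 (adjusted p = 0.0181) and -0.68 (adjusted p = 0.0155). Against control females both calls were lost without affected female 3 (adjusted p = 0.0518 and 0.0585 for Rspo3 and Rspo1), control female 2 (0.0746 and 0.0543) or control female 3 (0.0857 and 0.101), and against control males without affected female 3 (0.0523 and 0.0649).

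Among 7 tested transcription factors of dorsal progenitors, 1 fell against control females (Gsx1) and 2 fell against control males (Atoh1 and Neurog1). Atoh1, the factor of the most dorsal interneuron and rhombic lip progenitors, had 4, 3, 6 and 10 counts in affected females, against 22, 30, 13 and 12 counts in control males and 4, 19 and 21 counts in control females, a log2 fold change of -1.71 (adjusted p = 0.0245) against control males. Gsx1 had 0 to 4 counts in affected females and 2, 14 and 14 counts in control females (adjusted p = 0.0340), so its call rests on few reads. Neurog1, a proneural factor, had -0.85 (adjusted p = 0.0448) against control males. These 3 calls were each lost in 5 to 8 alternatives, among them without affected female 3 (adjusted p = 0.0757 for Atoh1, 0.0885 for Gsx1 and 0.136 for Neurog1).

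Among marker lists of cell types that the dissection could hold, those of early neurons, surface ectoderm and neural crest had the largest shares called. All 8 markers of early neurons fell in affected females against control females and 6 of 8 against control males; their summed level was 87.3 to 112 CPM in affected females, 157 to 277 CPM in control males and 116 to 271 CPM in control females, 116 CPM being control female 1. The count against control males was 3 of 8 without affected female 3, when 361 of all genes were called in place of 2940. Of 10 markers of surface ectoderm, 8 rose against control females and 7 against control males, with sums of 280 to 324 CPM in affected females, 164 to 226 CPM in control males and 146 to 265 CPM in control females, where control female 1 was again nearest to the affected females. Fewer of the 10 were called against control females without affected female 3 (4) or control female 2 or 3 (3 each), and against control males without affected female 3 (1) or control male 1 (4). Of all genes, 1663 were called against control females without control female 3, and 361 against control males without affected female 3. Cdh1, the most abundant of them, lay between 63.2 and 73.1 CPM in affected females, 32.2 and 47.1 CPM in control males and 27.1 and 62.3 CPM in control females.

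Neural crest markers, 8 in number, gave 5 that rose and 1 that fell against control females, while 2 rose and 1 fell against control males, with sums of 329 to 391 CPM in affected females, 273 to 324 CPM in control males and 262 to 280 CPM in control females. Of these 8, 3 were called against control females without affected female 1 or 4 or control female 2 or 3. Against control males 1 was called on omitting affected female 3 or control male 2, and 6 on omitting control male 4. Over all genes 28.0% and 20.2% were called in the 2 comparisons with all libraries, which is 4073 and 2940 genes. Against control females 1663 genes were called without control female 3, and against control males 361 without affected female 3. The 8 neural tube markers, led by Nes, were present in every library and had sums of 744 to 888 CPM, 696 to 867 CPM and 669 to 851 CPM in affected females, control males and control females; 3 rose against control females, or 1 without control female 2. In the remaining lists 1 of 10 head mesenchyme markers rose and 1 of 8 endothelial markers fell against control females. Neither was called without affected female 3 or control female 2 or 3. No erythroid marker was called in either comparison (1 of 8 and 0 of 8 at an unadjusted p under 0.05, 0 by DESeq2), though without control female 1 there were 5 and 2 of 8 lower, and their sum was 1117 to 2305 CPM in affected females, 2131 to 3691 CPM in control males and 557 to 4379 CPM in control females, with 557 CPM in control female 1.

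No marker of these lists was at 0 in any library. Bmp4, Bmp2, Msx1, Msx2 and Id genes are expressed outside the neural tube as well, and Id4, Atoh1 and Neurog1 belong to neural progenitors or neurons. The part of cell composition in the values of Bmp4, Id3 and the pathway genes was not tested.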

How the data were processed

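Each of 11 embryos gave 1 library of polyadenylated RNA, made by the TruSeq protocol and run on an Illumina HiSeq, per the labels. The authors deposited raw whole-number counts per Entrez gene; per the submitters' processing notes these came from featureCounts on mm10. Aligner, versions, strand setting and annotation are not given in the sources used. A series-wide table repeats these counts and was left out. Total counts were 8211942 to 11218682 per library. Pairs of libraries within a group gave chi-square values between 2.73 and 31.6 per degree of freedom (genes with 20 counts or more), so none was treated as a duplicate.

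Of 27179 identifiers, 25275 had a symbol in the RefSeq table of GRCm38.p6, whose coordinates are those of mm10. Genes were kept by filterByExpr (14542), scaled by TMM and fitted with edgeR 4.0.16 (R 4.3.3) in 1 quasi-likelihood model of all 11 libraries with group as the factor; Benjamini-Hochberg adjustment was used, with calls at 0.05. Intervals are 95%. The biological coefficient of variation was 11.9%. The procedure was tested on simulated data. The alternatives were RLE scaling, TMM on autosomal genes, 2 other filters, DESeq2 1.42.0, limma 3.58.1 (voom, sample weights), a replicate block, and other sets of libraries. Unscaled CPM was used only for group means of the members, with no test.

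The members, gene lists and marker lists were chosen with earlier results of these data known. Beside the members, the rule named at most 2 called genes per pathway list and comparison by adjusted p, or the most abundant gene where none was called, the most abundant marker of a list, and the 2 genes most like each member. Smad4, Smad6, Smad7, Grem1, Chrd, Msx1os, the uncalled Wnt1, Wnt3a and Lmx1b, and the most abundant Bmpr1a and Tcf12 where the rule did not take them, were named after their values were seen. No set test was run. Promoter windows are the 250 bases before a start in a RefSeq table. The window of Lmx1a, 167689308 to 167689557 on the plus strand, lies inside the gene span given above, which begins at 167688230.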

Additional observations from a re-analysis of the deposited data

Results flagged for a closer look

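Of 48 groups of 4 embryos examined (members and summed pathway and marker lists in affected females and control males), 2 held 1 embryo far from the others, and no member gene was among them. Chance flags about 1 in 20 such groups. The summed level of the 8 early neuron markers was 111.9 CPM in affected female 4, against 87.3 to 91.4 CPM in the other 3 affected females. The same sum was 276.6 CPM in control male 2, against 157 to 165 CPM in the other 3 control males; this embryo also had the highest Bmp4, Skil, Rspo3 and Id4 of the control males.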

How the results depend on the processing

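Calls of single members were close to the threshold. With limma voom the genes called were 7639, 6397 and 1569 in affected females against control females, affected females against control males, and control males against control females, and the members called were 3, 2 and 1, in place of 4073, 2940 and 21 genes and 2, 0 and 0 members; DESeq2 called 43 genes in the third. Without control female 1 and control male 4, affected females against control males had 6014 genes and 2 members called, and against control females 1 member. With only the 2 groups compared, 1 member was called in affected females against control males. Leaving out 1 library gave 1663 to 4957, 361 to 5140 and 18 to 35 genes and 0 to 2, 0 to 1 and 0 members in the 3 comparisons.

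The labels give no litter, and whether the replicate numbers pair the embryos is not known. Same-numbered embryos deviated together with correlations of -0.136 to 0.178. Differently numbered embryos were not compared, so these values cannot decide it. With the replicate number as a block, genes called were 2875, 3418 and 21 and members called against control females 0.

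Log2 fold changes near 0 changed sign in some alternatives, and the cause was not tested. In affected females against control females these were Msx2 (-0.028 with limma voom, -0.022 with the block, -0.059 without control female 1 and control male 4; -0.062 to 0.20 leaving out 1 library), Id2 (-0.040, -0.0049 and -0.022, -0.0019 with only the 2 groups; -0.025 to 0.047) and Msx1 (-0.27 to 0.078 leaving out 1 library). Against control males they were Msx2 (0.088 with limma voom), Id3 (-0.0036 with limma voom; -0.074 to 0.11), Bmp7 (-0.0039 to 0.11) and Lmx1a (-0.0055 to 0.12). In control males against control females they were Msx1 (-0.020 with limma voom), Msx2 (-0.12 with limma voom), Msx3 (-0.027 without control female 1 and control male 4) and Lmx1a (-0.046 to 0.17). None of these changes in sign was a call. Depth limits Gdf7, Gsx1 and, at 34 counts in its lowest library, Bmp4. The same limit holds for called pathway genes with fewer counts in their lowest library. These were Atoh1 (3 counts), Bmp8b (5), Chrd (11), Bmp6 (14), Bmp2 (23), Neurog1 (24) and Grem1 (29).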
